A study of Mus musculus with 24 samples.

Results

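Livers of mice given a corn oil high fat diet (HFD-corn oil) for 12 weeks were compared with livers of mice given a control diet for the same 12 weeks. The comparison was defined by the diet and duration stated for each sample, and it used 8 of the 24 arrays of the series, 4 from HFD-corn oil mice and 4 from control mice. All mice were male C57BL/6J animals that were 10 weeks old when the diets began, and each array held liver RNA from a single mouse. The HFD-corn oil diet contained more corn oil, coconut oil, sucrose and casein and less starch than the control diet, and unlike the control diet it contained added cholesterol, so the dietary fat and the dietary cholesterol cannot be told apart. The 4 animals of each diet group had been selected on body weight and on plasma triglycerides and cholesterol. Mice shared cages that are not named for each animal. The p-values therefore describe selected mice. The spread behind them was estimated over 23 arrays of all 6 diet and time groups, not over the 8 compared livers alone. Killing was spread over several mornings after food removal, with animals of a pair of diet groups taken each day, and the day of each mouse was not given.

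Hepatocytes obtain cholesterol by synthesis from acetyl-CoA and by uptake of lipoproteins, and they export it in lipoproteins, as bile acids or directly into bile. The SREBP transcription factors drive the genes of sterol and fatty acid synthesis when membrane cholesterol is low, whereas the oxysterol receptors LXR drive sterol export genes when it is high. Surplus fatty acids are esterified and stored in lipid droplets, and PPARγ, best known from adipocytes, drives many genes of fatty acid uptake and droplet formation when it is present in a fatty liver. PPARα, the main PPAR of hepatocytes, drives mitochondrial, peroxisomal and microsomal fatty acid oxidation.

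Expression was measured as a normalised log2 signal for each of 41345 probe sets (transcripts), and a transcript was called changed when its limma p-value, adjusted over all probe sets by the Benjamini-Hochberg method, was under 0.05. Differences are given as log2 fold changes of HFD-corn oil over control with the standard error (SE) of the fit, and levels of different genes were not set against each other. Median signals of the 8 arrays lay between 7.15 and 7.19, and arrays correlated at 0.9855 to 0.9914 within HFD-corn oil, 0.9841 to 0.9902 within control and 0.9815 to 0.9911 across the diets (Pearson, over all probe sets). Albumin (Alb), the most abundant secreted product of hepatocytes, had signals of 13.42, 13.49, 13.39 and 13.39 in HFD-corn oil livers and 13.51, 13.39, 13.50 and 13.47 in control livers, near the top of the scale on every array. Of 11 lists of cell type markers, covering hepatocytes, immune, stromal, endothelial, biliary, blood, fat, gut and muscle cells, none held a called gene. Only 0.179% of all probe sets were called, so lists this small would seldom hold a call. Of 8 blood markers 1 was measured. Mean signals lay below the array median for 7 of 8 neutrophil markers and 6 of 8 measured pancreas, gut or gall bladder markers. Cell composition was not tested.

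HFD-corn oil feeding changed 74 transcripts (0.179% of those tested), of which 44 (0.106%) were higher and 30 (0.0726%) were lower than in control livers. The median log2 fold change over all probe sets was −0.009, and 3528 transcripts (8.53%) had an unadjusted p under 0.05. Of all probe sets 46.9% were above 0, and of all named genes, taken by 1 probe set each, 51.1%. The called changes had a median size of 0.82 on the log2 scale and ranged from 0.35 to 2.84, and 27 of them were larger than 2-fold. In 69 of the 74, no HFD-corn oil liver overlapped a control liver, compared with 1896 (4.59%) of all probe sets. The 74 were selected on these same livers, so their separation is not independent evidence. The called probe sets with 1 gene symbol represented 38 genes that were higher and 21 that were lower. A further 8 probe sets had no symbol, and 5 had several and are not named. Leaving out single arrays moved the number of calls: it was 40, 47, 28 and 32 without HFD-corn oil replicates 1 to 4, and 90, 30, 41 and 39 without control replicates 1 to 4.

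**Figure D1:**
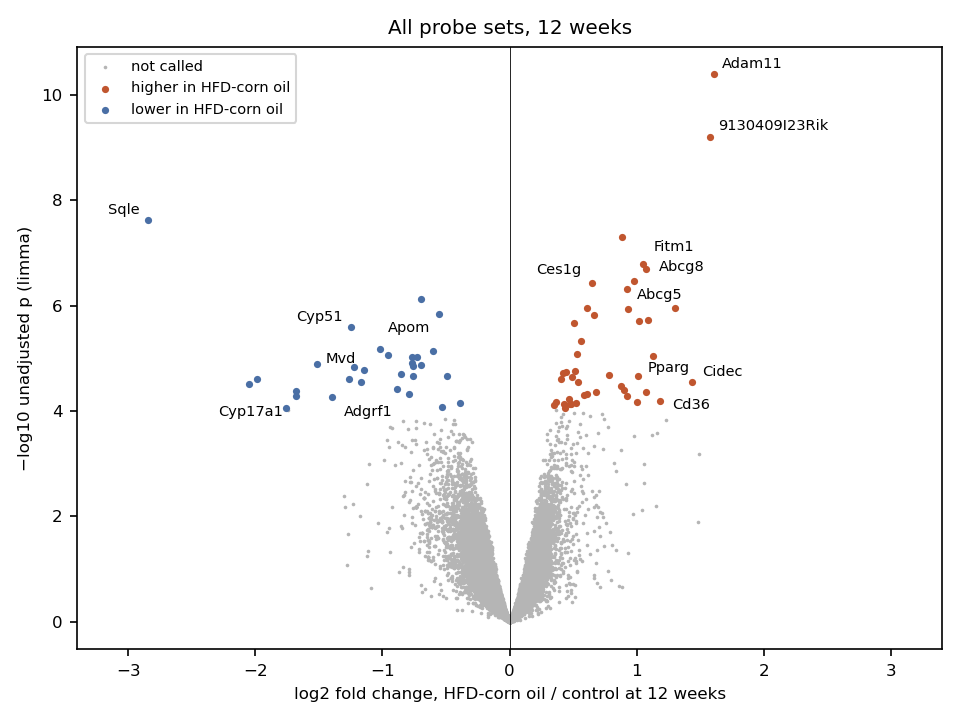
Log2 fold change of HFD-corn oil over control at 12 weeks (x axis) against the −log10 unadjusted limma p (y axis) for every probe set; grey points were not called, red points were called higher (44) and blue points called lower (30) in HFD-corn oil livers. Sqle lies farthest to the left at −2.84, and Adam11 has the smallest p of all.

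Among cholesterol synthesis genes measured by a probe set with 1 symbol, 3 fell with HFD-corn oil and none lay above 0. The 2 lists used, one from acetyl-CoA to farnesyl diphosphate and one from there to cholesterol, held 17 measured genes; all 17 had a log2 fold change below 0, with a median of −0.79, and 3 of them, Sqle, Cyp51 and Mvd, passed the test. Over all named genes, taken by 1 probe set each, 20 of 22180 (0.0902%) were called lower and 38 (0.171%) higher. Of the 17, 15 had an unadjusted p under 0.05, and in 9 the diets did not overlap. Of all named genes 4.18% were lower at that unadjusted level, and in 4.59% of all probe sets the diets did not overlap. A probe set annotated to both an isopentenyl diphosphate isomerase gene and a predicted gene, and so outside the 17, was also called lower (log2 fold change −1.26, SE 0.24, adjusted p = 0.0226), a call lost without HFD-corn oil replicate 2, 3 or 4 or control replicate 2 or 3 (adjusted p 0.053 to 0.122). The number of the 17 called was 7 when only probe sets with 1 symbol were tested, 6 on the 12-week arrays alone and 4 on the 8 arrays alone, and in none of these fits was one called higher.

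Sqle, squalene epoxidase, catalyses the first oxygenation of the sterol branch and had the largest change of all called transcripts. Its signals were 9.03, 7.81, 7.66 and 7.56 in HFD-corn oil livers and 10.23, 11.23, 11.14 and 10.84 in control livers. The diets were separated by more than a unit, with HFD-corn oil replicate 1 the highest of its group and control replicate 1 the lowest of its own. Sqle averaged 8.02 ± 0.68 with HFD-corn oil and 10.86 ± 0.45 with control diet (SD, n = 4 each), a log2 fold change of −2.84 (SE 0.35, adjusted p = 0.000327), or 7.18-fold lower. The call was kept on leaving out any of the 8 arrays, with fold changes from −3.18 to −2.69.

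Cyp51, the lanosterol 14α-demethylase, had signals of 9.16, 9.00, 8.78 and 9.13 in HFD-corn oil livers against 9.93, 10.69, 10.23 and 10.19 in control livers. All HFD-corn oil livers were below all control livers, and the log2 fold change was −1.24 (SE 0.20, adjusted p = 0.0056). Mvd encodes mevalonate diphosphate decarboxylase, an enzyme of the mevalonate pathway, and had signals of 8.24, 7.43, 7.64 and 7.85 with HFD-corn oil and 8.43, 9.43, 9.12 and 8.77 with control diet. HFD-corn oil replicate 1 and control replicate 1 came within 0.2 of each other, and the log2 fold change was −1.15 (SE 0.21, adjusted p = 0.0204). The Mvd call was lost without HFD-corn oil replicate 2, 3 or 4 or control replicate 2 or 3 (adjusted p 0.057 to 0.111), whereas that of Cyp51 was kept on leaving out any array.

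Other enzymes of the pathway had the same sign without passing the test. Fdft1, squalene synthase, had signals of 11.15, 11.08, 10.77 and 10.87 in HFD-corn oil livers and 11.55, 11.91, 11.74 and 11.61 in control livers, without overlap (log2 fold change −0.73, SE 0.17, adjusted p = 0.0828). Nsdhl, a sterol dehydrogenase of the C4 demethylation complex, had a log2 fold change of −0.93 (SE 0.21, adjusted p = 0.0828), and Lss, lanosterol synthase, one of −0.80 (SE 0.18, adjusted p = 0.0868). For the phosphomevalonate kinase gene Pmvk the value was −0.96 (SE 0.23, adjusted p = 0.108). None of these 4 passed the test, and of them only Lss overlapped between the diets, through control replicate 1 at 9.36 and HFD-corn oil replicate 1 at 9.37. Hmgcs1, the cytosolic HMG-CoA synthase, had a log2 fold change of −0.76 (SE 0.26, adjusted p = 0.353), and Ggps1, which directs farnesyl diphosphate to geranylgeranyl diphosphate, stood at −0.13 (SE 0.12, adjusted p = 0.837). Without control replicate 1, Nsdhl (adjusted p = 0.0454), Lss (adjusted p = 0.0105) and Pmvk (adjusted p = 0.0277) were called.

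The same mice were at the edges for most of the pathway. HFD-corn oil replicate 1 was the highest of its 4 livers for 15 of the 17 sterol synthesis genes, and control replicate 1 was the lowest of its 4 for 15 of the 17. Without control replicate 1, 6 of the 17 genes were called lower and their median log2 fold change was −0.92; without any other single array 2 or 3 were called. Fatty acid synthesis genes showed the same mice at the edges: for 14 measured genes of de novo lipogenesis, HFD-corn oil replicate 1 was the highest in 11 and control replicate 1 the lowest in all 14. The part of these mice in the result was tested only by leaving them out.

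**Figure D2:**
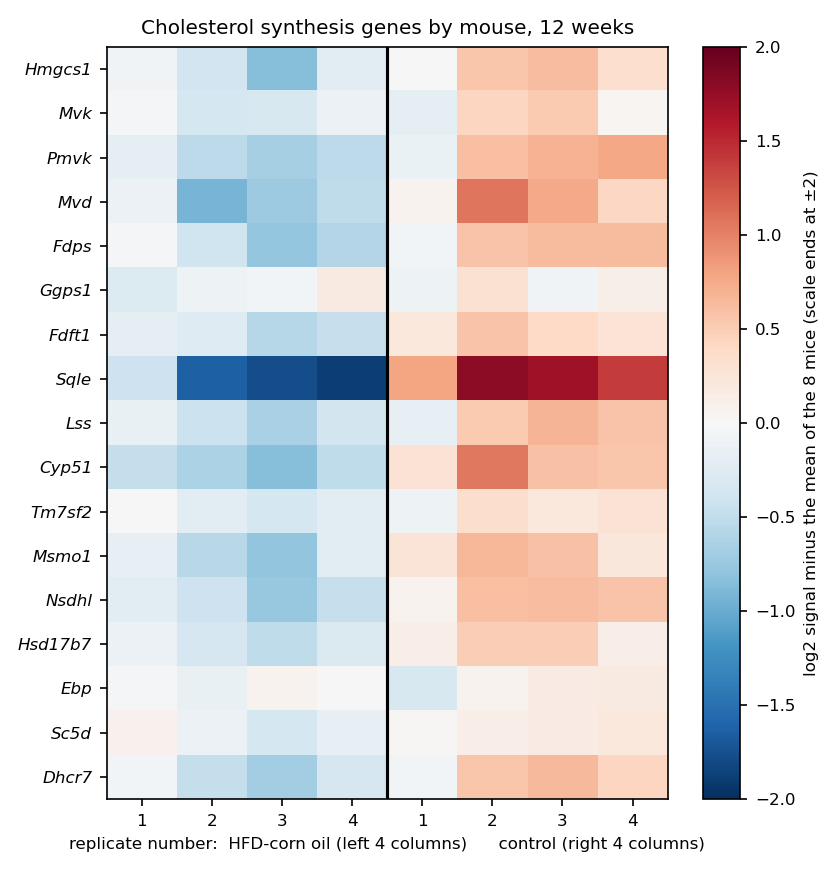
Heat map of the 17 cholesterol synthesis genes (rows, in pathway order) in the 8 livers (columns by replicate number, HFD-corn oil mice left of control mice); colour is the log2 signal minus the gene's mean over the 8 livers, blue lower and red higher, on a scale that ends at ±2. Sqle has the deepest colours, and replicate 1 of each diet is the palest column of its group for most genes.

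The start regions of Mvd and Cyp51 are shown because both genes passed the test and lie in the same pathway. Each sequence covers 250 bases before and 50 bases after the annotated start (RefSeq, GRCm38.p6), and capitals mark CCAAT on either strand, the letters bound by NF-Y, a factor known to act beside SREBP at sterol genes. Mvd lies on the minus strand at chr8:122443373-122443672, and its matches lie 60 and 27 bases before the start. Cyp51 lies on the minus strand at chr5:4104648-4104947 and has 1 match, 29 bases before the start.
Mvd: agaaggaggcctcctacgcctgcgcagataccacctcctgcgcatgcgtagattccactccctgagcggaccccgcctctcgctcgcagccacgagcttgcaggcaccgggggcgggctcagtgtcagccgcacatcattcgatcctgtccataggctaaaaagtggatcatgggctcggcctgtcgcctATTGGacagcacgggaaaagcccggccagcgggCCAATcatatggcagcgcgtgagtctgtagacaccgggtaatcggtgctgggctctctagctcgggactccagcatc
Cyp51: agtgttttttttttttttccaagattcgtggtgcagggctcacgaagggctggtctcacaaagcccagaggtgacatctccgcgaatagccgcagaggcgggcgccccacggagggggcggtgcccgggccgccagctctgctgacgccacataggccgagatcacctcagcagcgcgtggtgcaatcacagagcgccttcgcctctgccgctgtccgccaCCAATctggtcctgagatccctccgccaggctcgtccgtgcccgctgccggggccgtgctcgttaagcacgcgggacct
CCAAT occurred in 13 of the 14 sterol synthesis genes with a matched start region, against 37.9% of 27025 start regions of the same length; Dhcr7 was the exception. Among the called genes it occurred in 16 of 29 that were higher and in 4 of 16 that were lower, a group that includes Mvd and Cyp51. The core of the sterol regulatory element, searched as TCACNCCAC on both strands, occurred in 1.22% of all start regions and in 1 of the 14 sterol genes, Hmgcs1. These are matches of letters only, and overlap between matches of different searched words was not tested.

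Regulators of the pathway were not called. Srebf2, which encodes the SREBP that mainly controls cholesterol synthesis, had signals of 9.18, 8.94, 9.07 and 9.25 with HFD-corn oil and 9.39, 9.57, 9.72 and 9.39 with control diet, lower in every HFD-corn oil liver (log2 fold change −0.40, SE 0.14, adjusted p = 0.353). Srebf1, the relative that mainly controls fatty acid synthesis, ran the other way, with 11.77, 11.69, 11.27 and 11.50 in HFD-corn oil livers and 9.99, 10.76, 10.74 and 10.82 in control livers. Its log2 fold change was 0.98 (SE 0.23) and the adjusted p was 0.101, so it was not called although the diets did not overlap. Of the 11 measured genes of SREBP regulation and cholesterol uptake, 4 were above 0 and 7 below, with a median of −0.10.

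Sterol export through the ABCG5/ABCG8 transporter was higher at the transcript level. These half-transporters form a heterodimer that moves cholesterol and plant sterols from hepatocytes into bile, and both genes are known LXR targets. Abcg8 had signals of 11.64, 11.66, 11.05 and 11.34 in HFD-corn oil livers and 10.21, 10.34, 10.26 and 10.60 in control livers (log2 fold change 1.07, SE 0.15, adjusted p = 0.00138, 2.10-fold). Abcg5 had 12.60, 12.58, 12.23 and 12.40 in HFD-corn oil livers and 11.36, 11.45, 11.42 and 11.89 in control livers (log2 fold change 0.92, SE 0.13, adjusted p = 0.00218, 1.89-fold). For both genes every HFD-corn oil liver was above every control liver, HFD-corn oil replicates 1 and 2 were the highest and control replicate 4 was the highest control, and both calls were kept on leaving out any array.

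The pair shares a start region, shown here because its members were called in the same direction. The annotated start of Abcg5 on the minus strand and that of Abcg8 on the plus strand lie head to head with 109 bases between them, so the window of Abcg8, chr17:84682871-84683170 on the plus strand (RefSeq, GRCm38.p6), contains both. Capitals mark CCAAT, found 175 and 114 bases before the Abcg8 start.
Abcg8: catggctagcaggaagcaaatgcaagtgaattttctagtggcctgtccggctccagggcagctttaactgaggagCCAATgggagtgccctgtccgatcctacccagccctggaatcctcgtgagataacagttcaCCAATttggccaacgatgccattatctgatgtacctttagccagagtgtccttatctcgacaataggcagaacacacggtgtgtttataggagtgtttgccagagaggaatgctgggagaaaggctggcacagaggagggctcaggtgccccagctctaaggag
The nuclear receptor half-site AGGTCA, searched on both strands and present in 16% of all start regions, was not found in this window, which says only that these letters are not there.

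The other genes of sterol export and bile acid formation did not pass the test. Of 10 measured LXR and efflux genes, Abcg8 and Abcg5 were called higher and none lower, with a median of 0.11. The share called higher among all named genes was 0.171%. Abca1, which loads cholesterol onto apolipoprotein A-I, had 11.93, 11.91, 11.95 and 12.00 with HFD-corn oil and 11.66, 11.90, 11.78 and 11.60 with control diet (log2 fold change 0.21, SE 0.07, adjusted p = 0.391). Its 4 HFD-corn oil livers lay above the controls by as little as 0.01. Among 18 bile acid genes none was called and the median was 0.04. Cyp7a1, the rate-limiting enzyme of bile acid synthesis, had 11.27, 11.15, 11.12 and 11.01 in HFD-corn oil livers against 10.96, 10.15, 10.09 and 8.75 in control livers (log2 fold change 1.15, SE 0.385, adjusted p = 0.346); the control livers were far more spread (SD 0.92) than the HFD-corn oil livers (SD 0.11). Cyp39a1, which hydroxylates an oxysterol on the way to bile acids, had a log2 fold change of −1.10 (SE 0.295, adjusted p = 0.175).

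Lipid storage held 3 genes that rose. Of 19 measured genes of PPARγ and lipid droplet proteins, 3 were called higher, Fitm1, Cidec and Pparg, and none lower. Their median was 0.20, with 13 of 19 above 0. Among all named genes 0.171% were called higher, and 51.1% were above 0. Fitm1, an endoplasmic reticulum protein that binds triglyceride during droplet formation, had signals of 11.33, 11.25, 11.45 and 11.25 in HFD-corn oil livers and 10.35, 9.95, 10.32 and 10.44 in control livers. The log2 fold change was 1.05 (SE 0.14, adjusted p = 0.00132), and the call was kept on leaving out any array. For the mean over the probe sets of Fitm1 the log2 fold change was smaller, at 0.64. Its call was kept in every alternative, with adjusted p of 0.0107 at most.

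Pparg itself had signals of 9.94, 9.83, 9.29 and 9.96 in HFD-corn oil livers and a narrow 8.76, 8.72, 8.72 and 8.79 in control livers (log2 fold change 1.01, SE 0.19, adjusted p = 0.0223). Cidec, which enlarges droplets by moving lipid between them, had 8.58, 9.24, 8.49 and 8.33 with HFD-corn oil and 7.42, 7.17, 7.32 and 7.01 with control diet (log2 fold change 1.43, SE 0.28, adjusted p = 0.0247, 2.70-fold). Neither gene overlapped between the diets, although Pparg in HFD-corn oil replicate 3 was well below its group mates. The Pparg call was lost without HFD-corn oil replicate 1, 2 or 4 or control replicate 2, 3 or 4 (adjusted p 0.0645 to 0.0909), and the Cidec call without HFD-corn oil replicate 1, 2 or 3 or control replicate 2, 3 or 4 (adjusted p 0.0613 to 0.103). Cidea, a relative of Cidec, had 7.77, 7.59, 7.52 and 6.53 in HFD-corn oil livers and 6.10, 6.11, 6.49 and 6.22 in control livers, with replicate 4 of HFD-corn oil next to the controls (log2 fold change 1.12, SE 0.26, adjusted p = 0.0975; without that mouse 1.39, adjusted p = 0.0226). Plin2, the main droplet coat protein of hepatocytes, had a log2 fold change of −0.06 (SE 0.09, adjusted p = 0.908), with overlapping diets.

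Markers of adipocytes, which share several of these genes, had summed signals of 957 to 1148 in HFD-corn oil livers and 899 to 919 in control livers on the linear scale, with 4 of 6 measured members above 0 and none called. That list includes Cidea and Fabp4. The defining adipocyte hormone Adipoq had signals of 7.30 to 7.55 with HFD-corn oil and 7.33 to 7.63 with control diet, overlapping, and in whole liver more cells of a type and more RNA per cell cannot be told apart.

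Uptake and esterification genes contributed 1 call each. Cd36, the fatty acid translocase of the plasma membrane, had signals of 11.57, 11.47, 11.33 and 11.19 in HFD-corn oil livers and 9.93, 9.92, 10.47 and 10.54 in control livers (log2 fold change 1.18, SE 0.24, adjusted p = 0.0424). Mogat1, a monoacylglycerol acyltransferase, had 7.96, 7.72, 7.50 and 7.59 with HFD-corn oil and 6.47, 6.14, 6.91 and 6.95 with control diet (log2 fold change 1.07, SE 0.215, adjusted p = 0.0334). In both genes the diets were separate, and the controls fell into a lower pair, replicates 1 and 2, and a higher pair, replicates 3 and 4. The call of Cd36 was lost on leaving out any of the 8 arrays (adjusted p 0.0573 to 0.171). That of Mogat1 was lost on leaving out any HFD-corn oil array or control replicate 1 or 2 (adjusted p 0.0635 to 0.165). The remaining lists around them were near 0, with medians of 0.09 for 13 uptake and binding genes and 0.07 for 20 genes of triglyceride and phospholipid synthesis.

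Fabp5, an intracellular fatty acid carrier, is 1 of 5 uptake and binding genes below 0, beside 8 above 0. The brightest of its 4 probe sets had signals of 10.93, 10.39, 9.90 and 9.90 in HFD-corn oil livers and 10.81, 12.78, 12.03 and 12.46 in control livers, so that control replicate 1 lay among the HFD-corn oil livers. Its log2 fold change was −1.74 (SE 0.37, adjusted p = 0.0522), just outside the threshold. The other three probe sets were called lower, with log2 fold changes of −1.76 (adjusted p = 0.049), −1.99 (adjusted p = 0.0226) and −2.05 (adjusted p = 0.0258). Fabp5 has near-identical copies in the genome that could share these probes, so the 4 probe sets are not independent measurements of 1 gene. Each of the called probe sets lost its call without HFD-corn oil replicate 2, 3 or 4 or control replicate 2, 3 or 4 (adjusted p 0.052 to 0.221), and the brightest was called without control replicate 1 (log2 fold change −2.14, adjusted p = 0.00558).

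**Figure D3:**
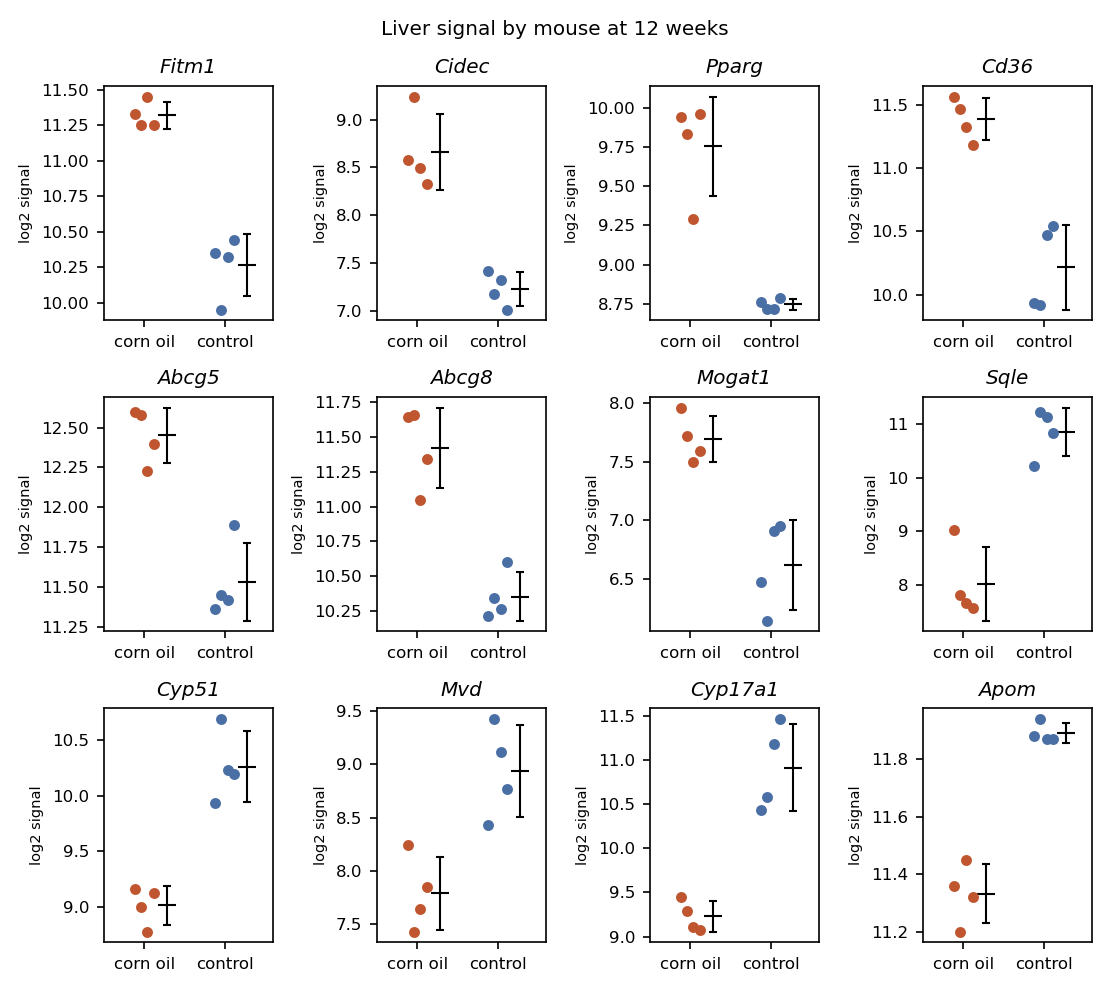
Log2 signal (y axis, own range in each panel) of 12 called genes in each liver, HFD-corn oil mice (red) left of control mice (blue), with 1 point for each mouse and the mean ± SD beside the points (n = 4 each). Sqle, Cyp51 and Mvd are lower and Abcg8, Fitm1 and Cd36 higher in HFD-corn oil livers, and no panel has overlapping diets.

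Fatty acid synthesis genes as a list were not called in either direction. Among 14 measured genes of de novo lipogenesis the median was −0.16, 4 were above 0 and 10 below. That median was −0.31 without control replicate 1, −0.04 without HFD-corn oil replicate 3 and −0.03 without control replicate 4. Fasn, fatty acid synthase, had 12.81, 12.46, 12.05 and 12.44 in HFD-corn oil livers and 12.09, 12.73, 12.72 and 12.88 in control livers (log2 fold change −0.16, SE 0.285, adjusted p = 0.927), and the diets overlapped fully. Pnpla3, a lipid droplet acylhydrolase and known SREBP-1c target, had 8.91, 7.70, 7.47 and 7.62 with HFD-corn oil and 7.48, 9.97, 9.35 and 10.12 with control diet. Replicate 1 of each diet stood apart from its group mates in that gene, and the log2 fold change of −1.30 (SE 0.41, adjusted p = 0.291) did not pass the test, but without control replicate 1 it was −1.88 (adjusted p = 0.0072).

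Of the enzymes that desaturate and elongate polyunsaturated fatty acids, all 8 measured were below 0 with a median of −0.20, and 1, Elovl2, was called. Of all named genes 51.1% were above 0 and 0.0902% were called lower. In 3 of the 8 the diets did not overlap, against 4.59% of all probe sets. Elovl2 elongates long-chain polyunsaturated fatty acids towards DHA. It had 12.40, 12.36, 12.28 and 12.30 in HFD-corn oil livers and 12.61, 12.88, 12.66 and 12.77 in control livers (log2 fold change −0.39, SE 0.08, adjusted p = 0.0441). The groups were separate, but the call was lost on leaving out any array except that of control replicate 1 (adjusted p 0.0815 to 0.2). Fads1, the Δ5-desaturase, was 12.54, 12.53, 12.49 and 12.39 with HFD-corn oil and 12.80, 12.86, 12.83 and 12.93 with control diet (log2 fold change −0.37, SE 0.12, adjusted p = 0.353), and Fads2, the Δ6-desaturase, had a log2 fold change of −0.22 (SE 0.11, adjusted p = 0.611). Both were lower in each HFD-corn oil liver than in any control liver and neither was called.

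Oxidation genes gave few calls. Aldh3a2, the microsomal fatty aldehyde dehydrogenase, had 12.36, 12.43, 12.28 and 12.25 in HFD-corn oil livers and 11.96, 11.51, 11.59 and 11.60 in control livers (log2 fold change 0.66, SE 0.10, adjusted p = 0.00423). Acaa1b, a peroxisomal 3-ketoacyl-CoA thiolase, had 11.45, 11.54, 11.76 and 11.51 with HFD-corn oil and 10.99, 10.61, 10.93 and 11.01 with control diet (log2 fold change 0.68, SE 0.14, adjusted p = 0.0334). The diets did not overlap for either gene. The call of Aldh3a2 was kept on leaving out any array, and that of Acaa1b was lost on leaving out any array except that of control replicate 1 (adjusted p 0.0645 to 0.165). Acaa1b has a close paralog, Acaa1a, and the share of signal from each was not tested.

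The lists these genes belong to had medians of 0.27 over 12 genes of ω-oxidation and acyl-CoA thioesterases, 0.07 over 19 peroxisomal genes and 0.08 over 23 genes of mitochondrial fatty acid oxidation, the last without a call. The median of the ω-oxidation and thioesterase genes was 0.07 without control replicate 2. Acot2, a mitochondrial acyl-CoA thioesterase, had a log2 fold change of 0.69 (SE 0.16, adjusted p = 0.0952), and Ehhadh, the peroxisomal bifunctional enzyme, one of 0.34 (SE 0.10, adjusted p = 0.225). Cyp4a14, a fatty acid ω-hydroxylase and known PPARα target, had 11.50, 11.54, 11 and 10.31 in HFD-corn oil livers and 11.45, 8.53, 11.76 and 10.55 in control livers, a spread that left it without a call (log2 fold change 0.51, SE 0.53, adjusted p = 0.863); without control replicate 2 the value was −0.17. Fgf21, a fasting-related hormone secreted by the liver, had 7, 7.27, 7.4 and 6.95 with HFD-corn oil and 8.80, 7.77, 7.51 and 7.88 with control diet, lower in every HFD-corn oil liver but not called (log2 fold change −0.84, SE 0.19, adjusted p = 0.0724); without control replicate 3 it was called (adjusted p = 0.0265).

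Among genes of foreign-compound metabolism measured by a probe set with 1 symbol, 3 were called, all higher with HFD-corn oil. The share called higher among all named genes was 0.171%. Ces1g, a carboxylesterase with lipase activity, had 11.60, 11.47, 11.50 and 11.40 in HFD-corn oil livers and 10.80, 10.66, 11.05 and 10.86 in control livers (log2 fold change 0.65, SE 0.09, adjusted p = 0.0019). Its call was kept on leaving out any array, but carboxylesterases are a family of close paralogs, and cross-hybridisation was not tested. Abcc3, which exports bile acid and drug conjugates into the blood, had 11.74, 11.89, 11.70 and 11.58 with HFD-corn oil and 11.30, 10.37, 10.89 and 11.21 with control diet (log2 fold change 0.78, SE 0.15, adjusted p = 0.0222). Its call was lost without HFD-corn oil replicate 1, 2 or 3 or control replicate 2 or 3 (adjusted p 0.0635 to 0.0818). Ephx1, microsomal epoxide hydrolase, had 12.07, 12.22, 12.22 and 12.23 in HFD-corn oil livers and 11.97, 11.61, 11.68 and 11.62 in control livers (log2 fold change 0.47, SE 0.10, adjusted p = 0.0394). Its call was lost on leaving out any array except that of control replicate 1 (adjusted p 0.0657 to 0.165). All 3 genes were separate between the diets, and replicate 1 was the highest control for Abcc3 and Ephx1.

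Of 33 measured members of the Cyp2 family none was called; 24 were above 0, 12 were higher and none lower at an unadjusted p under 0.05, and the median was 0.15. Over all named genes 4.57% were higher and 4.18% lower at that unadjusted level, and the median was 0.003. Cyp2a5, the coumarin 7-hydroxylase, had 9.69, 9.78, 9.66 and 9.52 with HFD-corn oil and 8.90, 7.79, 8.27 and 8.77 with control diet, without overlap (log2 fold change 1.23, SE 0.27, adjusted p = 0.0707). Cyp3a11, the main murine CYP3A enzyme, had a log2 fold change of 0.63 (SE 0.14, adjusted p = 0.0626), and its diets did not overlap. Cyp2 and Cyp3 genes are families of close paralogs, and the share of signal from each was not tested. Probe sets shared by several genes are outside these counts, and 3 of them were called higher: 1 annotated to several glutathione S-transferase A genes (log2 signal 11.08 ± 0.18 with HFD-corn oil and 9.78 ± 0.47 in controls, SD, n = 4 each, adjusted p = 0.00364 by limma, kept on leaving out any array) and 2 annotated to several Cyp3a genes (log2 fold change 1.00, SE 0.21, adjusted p = 0.0428, and 0.90, SE 0.18, adjusted p = 0.032). None of the 3 can be assigned to 1 gene, and both Cyp3a probe sets lost the call without HFD-corn oil replicate 1, 2 or 4 or control replicate 2, 3 or 4 (adjusted p 0.0862 to 0.178). Without control replicate 1, Cyp2a5 (adjusted p = 0.0412) and the Cyp3a11 probe set with 1 symbol (adjusted p = 0.036) were called. The 31 conjugating enzymes had a median of 0.10 with no calls, and the 21 NRF2 targets and antioxidant enzymes a median of 0.07 with 2 calls, Abcc3 and Ephx1.

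Apom, which encodes the apolipoprotein that carries sphingosine-1-phosphate on HDL, was the single call among 21 genes of apolipoproteins and lipoprotein assembly or clearance. It had 11.36, 11.20, 11.45 and 11.32 in HFD-corn oil livers and 11.88, 11.94, 11.87 and 11.87 in control livers (log2 fold change −0.56, SE 0.09, adjusted p = 0.00418). The control values spanned less than 0.1, every HFD-corn oil liver lay below them, and the call was kept on leaving out any array. Apoa4, an apolipoprotein of chylomicrons and HDL, had a log2 fold change of −0.44 (SE 0.14, adjusted p = 0.286) with no overlap.

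**Figure D4:**
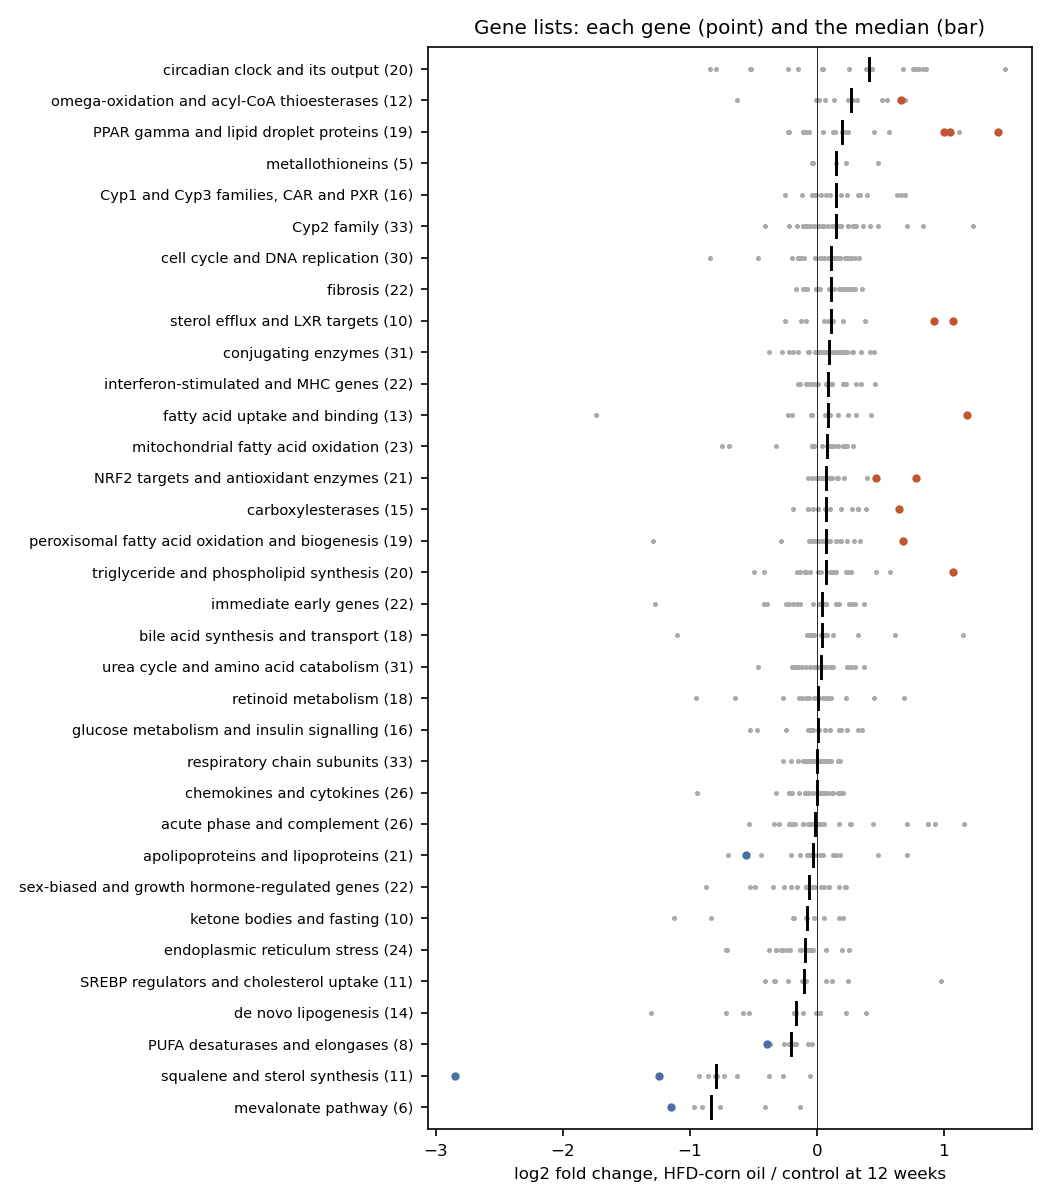
Log2 fold changes of HFD-corn oil over control at 12 weeks for the measured members of the gene lists, 1 point for each gene, with the number measured beside each list name, red and blue points for genes called higher and lower, grey points for the rest and a bar at each list's median. Every gene of the sterol synthesis lists lies below 0, and the red points lie in the lipid storage, efflux, uptake, triglyceride synthesis, ω-oxidation, peroxisomal, carboxylesterase and NRF2 lists.

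Outside these pathways stood the pair of named genes with the smallest p-values. Adam11, a member of the ADAM family without protease activity that is known from the mouse nervous system, had 8.93, 9.15, 8.97 and 9.34 in HFD-corn oil livers and 7.43, 7.28, 7.78 and 7.48 in control livers (log2 fold change 1.61, SE 0.14, adjusted p = 1.68e-06, 3.04-fold). The transcript 9130409I23Rik had 9.11, 9.23, 9.23 and 9.38 with HFD-corn oil and 7.71, 7.38, 7.73 and 7.81 with control diet (log2 fold change 1.57, SE 0.16, adjusted p = 1.27e-05). In both, more than a unit separated the lowest HFD-corn oil liver from the highest control liver. Sema5b, a semaphorin of axon guidance, was higher by 0.98 (SE 0.14, adjusted p = 0.0019), with HFD-corn oil replicate 4 at 8.58 above its group mates at 8.10 to 8.14. Themis, known from thymocyte selection, was higher by 1.09 (SE 0.17, adjusted p = 0.00471) with 7.56, 7.60, 7.34 and 7.45 in HFD-corn oil livers and 6.48, 6.38, 6.25 and 6.49 in control livers. The 9 measured markers of T, NK and B cells, beside it, had summed signals of 2271 to 2646 in HFD-corn oil livers and 2068 to 3281 in control livers, with none called. All 4 calls were kept on leaving out any array; that of Themis was lost with the removed 8-week array added back (adjusted p = 0.0576).

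Further higher genes were Lgals1, Olig1, Gm19619 and 1700080G11Rik. Lgals1, the β-galactoside-binding lectin galectin-1, had 11.67, 11.37, 11.33 and 11.12 in HFD-corn oil livers and 10.30, 9.96, 10.35 and 10.37 in control livers (log2 fold change 1.13, SE 0.20, adjusted p = 0.0147). Its diets did not overlap, and its call was lost without HFD-corn oil replicate 1 or control replicate 2 (adjusted p 0.0797 at most). Olig1, a transcription factor known from oligodendrocytes, was higher by 0.92 (SE 0.19, adjusted p = 0.0352) but lost its call on leaving out any of the 8 arrays (adjusted p 0.0511 to 0.137). Gm19619 was higher by 0.93 (SE 0.14, adjusted p = 0.00364) and 1700080G11Rik by 1.02 (SE 0.16, adjusted p = 0.00471), and both calls were kept on leaving out any array, although that of 1700080G11Rik was lost with the removed 8-week array added back (adjusted p = 0.622). Markers of stellate cells and fibroblasts, which also express Lgals1, had summed signals of 8591 to 9638 with HFD-corn oil and 8488 to 9423 with control diet, none called.

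Among the lower genes, Cyp17a1, the steroid 17α-hydroxylase of androgen synthesis, had 9.45, 9.29, 9.11 and 9.07 in HFD-corn oil livers and 10.43, 10.58, 11.18 and 11.47 in control livers (log2 fold change −1.68, SE 0.34, adjusted p = 0.0352). Adgrf1, an adhesion G protein-coupled receptor, had 8.26, 8.59, 9.13 and 8.92 with HFD-corn oil and 9.42, 10.90, 10.11 and 10.09 with control diet (log2 fold change −1.40, SE 0.285, adjusted p = 0.037). Neither overlapped between the diets, and both lost the call on leaving out any array except that of control replicate 1 (adjusted p 0.0735 to 0.149 for Cyp17a1 and 0.0548 to 0.177 for Adgrf1). Gria3, an AMPA-type glutamate receptor subunit, fell by 1.23 (SE 0.23, adjusted p = 0.0191), with 7.11, 7.18, 7.06 and 6.57 in HFD-corn oil livers and 8.02, 9.18, 7.56 and 8.07 in control livers. Control replicate 2 stood above the rest, and the call was lost without HFD-corn oil replicate 3 or 4 (adjusted p 0.0548 and 0.0899).

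Cdc42ep5, an effector of the small GTPase CDC42, was 7.53, 7.38, 7.54 and 7.50 in HFD-corn oil livers and 8.09, 8.51, 9.10 and 8.35 in control livers (log2 fold change −1.02, SE 0.18, adjusted p = 0.0129), and kept its call on leaving out any array. Aldoc, the brain-type aldolase of glycolysis, was 8.22, 7.93, 7.86 and 7.99 with HFD-corn oil and 8.75, 8.69, 8.83 and 8.79 with control diet (log2 fold change −0.76, SE 0.14, adjusted p = 0.0147). Both genes were separate between the diets, and Aldoc lost its call without HFD-corn oil replicate 3 or 4 or control replicate 3 (adjusted p 0.0504 to 0.0635). Pdzk1ip1, a small membrane protein, and Chrna4, a nicotinic receptor subunit, were called lower although control replicate 1, at 9.05 and 8.01, lay within the HFD-corn oil range. Pdzk1ip1 had a log2 fold change of −1.17 (SE 0.23, adjusted p = 0.0247) and lost its call without HFD-corn oil replicate 2, 3 or 4 or control replicate 2 or 4 (adjusted p 0.0735 to 0.125). Chrna4 had one of −0.88 (SE 0.175, adjusted p = 0.0308) and lost its call without HFD-corn oil replicate 2, 3 or 4 or control replicate 2, 3 or 4 (adjusted p 0.0811 to 0.143).

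The rest of the called genes with 1 symbol, listed after their values were seen, changed by less than 2-fold. Higher with HFD-corn oil, by 0.35 to 0.88 on the log2 scale, were Osbpl3, Entpd5, Cebpe, Hsd17b10, Ermp1, Ppm1k, Slc25a21, Krt8, Dera, 4931406C07Rik, Dcxr, Gm5524, Mccc2, Siae, Il12b, Adhfe1, Mfn2 and Car3. The other lower genes, with log2 fold changes from −0.95 to −0.53, were Sytl5, 4833411C07Rik, Smim22, Mir1955, Plxnb1, Hopx and Atp4a. Of the genes in this paragraph, Entpd5, Ermp1, 4931406C07Rik and Plxnb1 kept the call on leaving out any array. With the removed 8-week array added back the call of 4931406C07Rik was lost (adjusted p = 0.492), whereas that of Plxnb1 was kept. Plxnb1 was not called for the mean of its probe sets on the 23 arrays (log2 fold change −0.29, adjusted p = 0.123). Each other gene of this paragraph lost the call in at least 1 omission, with adjusted p from 0.0504 to 0.206. Among these, Car3 had a log2 fold change of 0.11 for the mean of its probe sets.

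Inflammation, fibrosis, proliferation and stress lists held no calls in the main fit. The medians were −0.01 for 26 acute phase and complement genes, 0.00 for 26 chemokines and cytokines, 0.09 for 22 interferon-stimulated and MHC genes, 0.11 for 22 fibrosis genes and 0.11 for 30 cell cycle genes. Of 24 genes of endoplasmic reticulum stress 21 were below 0, with a median of −0.09, whereas 51.1% of all named genes were above 0. Orm3, an orosomucoid of the acute phase, had the smallest adjusted p of its list at 0.0956 (log2 fold change 1.16). It was called on the 12-week arrays alone (adjusted p = 0.014) and on the 8 compared arrays alone (adjusted p = 0.0198). On the 12-week arrays alone 2 of the 26 acute phase and complement genes were called higher. Il12b, a cytokine gene outside these lists, was called higher (log2 fold change 0.42, adjusted p = 0.0215). The Il12b call was lost on leaving out any HFD-corn oil array or control replicate 2 or 4 (adjusted p 0.0523 to 0.108). Of 14 Kupffer cell and macrophage markers 11 were below 0 and 5 were lower at an unadjusted p under 0.05. At that level 4.18% of all named genes were lower. The markers had summed signals of 8159 to 9450 in HFD-corn oil livers and 8728 to 11502 in control livers. The respiratory chain (33 genes, median 0.00), the urea cycle and amino acid catabolism (31 genes, median 0.03) and glucose metabolism (16 genes, median 0.01) were near the median of all genes.

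The circadian list was the most displaced of the lists without a call. Its 20 genes had a median of 0.41, whereas its median in the 8-week study was −0.22. At an unadjusted p under 0.05, 6 of the 20 were higher and 3 lower. At that level 4.57% of all named genes were higher and 4.18% lower. Dbp, a clock output transcription factor, had 8.99, 10.02, 9.67 and 8.46 with HFD-corn oil and 8.51, 7.14, 7.23 and 8.34 with control diet, and Arntl, the core activator BMAL1, had 9.59, 8.70, 9.70 and 10.25 with HFD-corn oil and 10.05, 10.67, 10.53 and 10.19 with control diet. In both genes the diets overlapped, with HFD-corn oil replicate 4 and control replicates 1 and 4 between the extremes, and neither was called (adjusted p = 0.411 and 0.688). The hour and day of killing were not given for each mouse and cannot be told apart from diet.

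Mice of a separate study were killed after 8 weeks on the same diets, and the 12-week changes were compared with theirs (3 HFD-corn oil and 4 control arrays). Those mice were 9 weeks old at the start, so study, age and duration cannot be told apart. Of the 74 transcripts called at 12 weeks, 73 had the same sign at 8 weeks, whereas 59.3% of all probe sets did. The 8-week comparison called 305 transcripts (0.738%), and 44 transcripts were called at both times in the same direction, that is 44 of the 74 and 44 of the 305. A direct test of the change between the studies called no transcript by limma, with 1507 (3.64%) at an unadjusted p under 0.05 and a smallest adjusted p of 1.

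All 17 sterol synthesis genes were below 0 at 8 weeks as well, where 11 were called and the median was −0.96. The change was smaller at 12 weeks for 15 of the 17. Their 12-week median was −0.79 with all mice and −0.92 without control replicate 1, the lowest control for 15 of them. Whether the pathway as a whole changed less at 12 weeks was not tested. Sqle stood at −2.84 at 12 weeks and −3.05 at 8 weeks, Abcg8 at 1.07 and 0.85, and Pparg at 1.01 and 1.20. Cdc42ep5 had −1.02 at 12 weeks and −0.14 at 8 weeks (adjusted p = 0.916), and 9430037G07Rik −1.51 (adjusted p = 0.018) and −0.24 (adjusted p = 0.899). The difference between the studies was not called for these genes (adjusted p of the change = 1). The call of 9430037G07Rik was lost without HFD-corn oil replicate 2 or 3 or control replicate 2 or 3 (adjusted p 0.0704 to 0.0815).

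**Figure D5:**
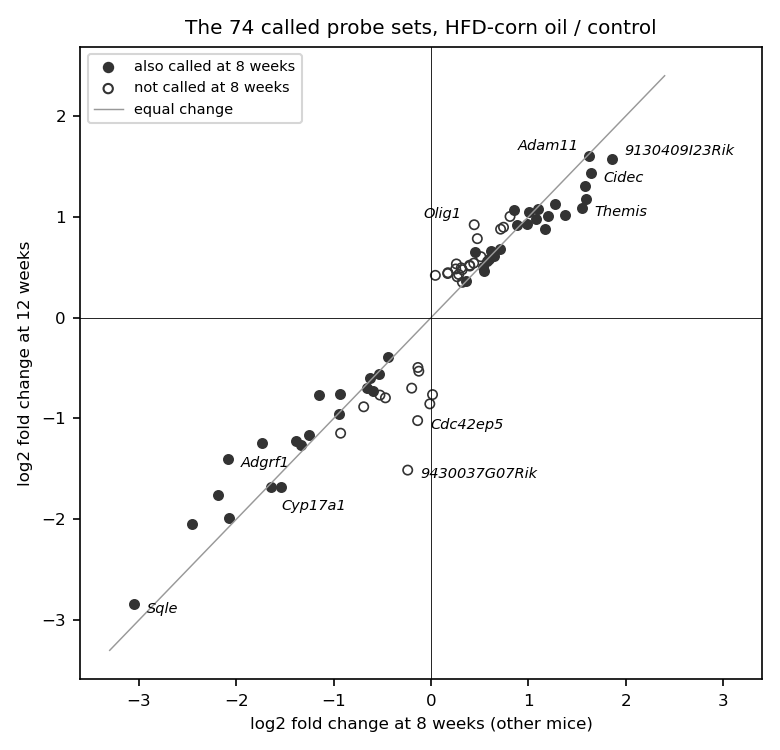
Log2 fold change of HFD-corn oil over control at 12 weeks (y axis) against that at 8 weeks in separate mice (x axis) for the 74 transcripts called at 12 weeks; filled points were also called at 8 weeks and the line marks equal change. All but 1 share the sign of the 8-week change, and Cdc42ep5 and 9430037G07Rik lie near 0 at 8 weeks.

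A second high fat diet, in which fish oils rich in EPA and DHA replaced part of the corn oil (HFD-EPA/DHA), was fed to 4 mice of the 12-week study and was set against HFD-corn oil directly. HFD-EPA/DHA differed from HFD-corn oil in 4 transcripts (0.00967%), all lower with HFD-EPA/DHA by limma, and 1913 had an unadjusted p under 0.05. One of these, a probe set without a symbol, was among the 74. Apoa4 was the named gene with the smallest p, at 11.21, 11.18, 10.97 and 10.81 in HFD-EPA/DHA livers, 12.79, 12.57, 12.50 and 12.50 in HFD-corn oil livers and 13.20, 13.00, 13.03 and 12.90 in control livers. The difference of HFD-EPA/DHA from HFD-corn oil was −1.55 (SE 0.14, adjusted p = 2.54e-06), while HFD-corn oil against control was not called.

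Both diets are compared with the same controls, so their changes are given side by side only. Sqle was −2.84 with HFD-corn oil and −3.51 with HFD-EPA/DHA, Fitm1 1.05 and 0.76, Cd36 1.18 and 1.12, and Cidec 1.43 and 0.95. The direct differences between the high fat diets for these genes were −0.67 (SE 0.35), −0.29 (SE 0.14), −0.06 (SE 0.24) and −0.48 (SE 0.28), none called (adjusted p = 1). For Elovl2 the difference was −0.40 (SE 0.08, adjusted p = 0.193), with 11.94, 12.00, 11.84 and 11.98 in HFD-EPA/DHA livers below all 4 HFD-corn oil livers.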

How the data were processed

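Total liver RNA of single mice was hybridised, 1 mouse an array, to the Mouse Gene 2.0 ST GeneChip. The deposited values are log2 signals, which the authors made in Affymetrix Expression Console by iterative PLIER on perfect match probes with quantile normalisation; the log2 scale was read from the values. Precision is limited by the 4 arrays of each group. limma 3.58.1 (R 4.3.3) fitted 1 mean for each of 6 diet and time groups over 23 of 24 arrays, leaving out the array the study removed (HFD-corn oil, 8 weeks, replicate 3), so all groups shared 1 estimate of spread. P-values were Benjamini-Hochberg adjusted over 41345 probe sets. Of these, 23521 had 1 gene symbol, 1820 several and 16004 none. The named genes were the 15 largest called changes in each direction, called list members with up to 4 members of the smallest p in each list, and genes named in the study's figures, by the probe set brightest over all arrays. Fdft1, Lss, Ggps1, Dhcr7, Fasn, Plin2, Cyp4a14, Arntl, Alb, Adipoq, Fabp4 and the called genes below the 15 largest that are in no list fall outside this rule and were chosen after their values were seen. Members and lists were chosen with earlier results of these data known. The fit was tested on simulated data. Alternatives tried were other array sets and weights, a trended robust fit, filters, an offset of 16, renormalisation, median centring, a replicate block and leaving out single arrays. Deviations of same-numbered mice correlated at −0.31 to 0.09, and these mice were not treated as pairs.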

Additional observations from a re-analysis of the deposited data

Results flagged for a closer look

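In 11 of 180 combinations of a named gene and a diet group, a single mouse lay farther from its 3 group mates than Dixon's critical value for 4 samples allows, and chance alone flags about 1 in 20. In HFD-corn oil livers, replicate 1 was high for Sqle at 9.03 (next 7.81) and Pnpla3 at 8.91 (next 7.70) and low for Ephx1 at 12.07 (next 12.22). HFD-corn oil replicate 3 was high for Plxnb1 at 8.9 (next 8.66), and replicate 4 for Sema5b at 8.58 (next 8.14). In control livers, replicate 1 was low for Nsdhl at 11.15 (next 11.64) and Srebf1 at 9.99 (next 10.74). Control replicate 2 was low for 1700080G11Rik at 9.36 (next 10.11). Control replicate 3 was low for Fabp4 at 7.92 (next 8.27) and high for Siae at 10.46 (next 10.31), and control replicate 4 was high for Abcg5 at 11.89 (next 11.45).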

How the results depend on the processing

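The 74 calls (44 higher, 30 lower) became 45 (23 higher, 22 lower) when the removed 8-week array was added back, and 28 to 90 (18 to 40 higher, 6 to 50 lower) on leaving out each array. At an unadjusted p under 0.05 the count was 3528 (1457 higher, 2071 lower). The other fits gave 58 to 105 calls. The 8 arrays alone gave 58 (40 of the main 74 among them) and the 12-week arrays alone 74 (44 of the main 74). Probe sets above the median gave 105 and those with 1 symbol 102. With the replicate number as a block, 74 were called (63 shared), and deviations of same-numbered mice correlated at 0.09, −0.31, 0.08 and −0.1. The numbers were treated as labels. Whether same-numbered mice shared a killing day or cage was not tested, as neither was given for each mouse. The change between 8 and 12 weeks had 0 calls in every fit and 1507 unadjusted. HFD-EPA/DHA against HFD-corn oil had 4 calls, all lower; array weights gave 7 (3 higher), the 12-week arrays alone 1 higher, leaving out single arrays 4 to 6 (0 to 1 higher), and the unadjusted level 1913 (969 higher, 944 lower). Cyp4a14, not called at 0.51, was −0.17 without control replicate 2 and 0.91 without control replicate 3; no other named gene changed direction, and 18 of the 74 probe sets were called in all 19 alternatives. The cause of the changes in count was not tested. With 4 mice a group, selected on body weight and plasma lipids and fed fat and cholesterol together, a gene without a call may still differ.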
